A study of Mus musculus with 12 samples.

Results

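The miR-29 family is a small group of microRNAs (miRNAs) that share the stretch of bases with which a miRNA finds its targets. Its 4 members on the array, mmu-miR-29a, mmu-miR-29b, mmu-miR-29b* and mmu-miR-29c (mmu stands for the mouse and is left off from here on), were chosen by name, as 4 of the 577 miRNAs measured. They were followed across 4 mouse breast cancer lines, each measured on 3 one-colour Agilent miRNA arrays. The lines 4T1, 4TO7, 168FARN and 67NR are of spontaneous breast cancer origin in the female, wild-type BALB/c mouse. The labels give 4T1 as metastatic and 4TO7, 168FARN and 67NR as non-metastatic, and the study set the metastatic line against the others. The labels give no treatment, and total RNA taken with Trizol was put on the arrays at 100 ng each. The metastatic phenotype rests on 1 line. Nothing in the labels tells if the repeats came from separate cultures, so p-values here reflect the spread between these arrays alone, which could be technical. With 3 arrays to a line, array number limits all precision.

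A miRNA is cut from a hairpin RNA, and one strand, usually the abundant one, is loaded into the silencing complex, where bases 2 to 8 (the seed) pair with messenger RNAs and lower their output. The miR-29 family is known for repressing messages of the extracellular matrix, among them collagens, elastin and fibrillin, and is often low in fibrotic tissue. It also acts on messages of DNA methyltransferases, and in breast cancer miR-29b has been described as a brake on spread that the luminal factor GATA3 turns on.

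The mature sequences show why the members are treated as 1 family and how few bases set them apart. They are taken from RefSeq for the mouse build GRCm38.p6, which held all 4 members, and run 5′ to 3′ with the seed in capitals.
miR-29a: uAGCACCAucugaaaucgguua
miR-29b: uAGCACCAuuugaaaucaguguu
miR-29c: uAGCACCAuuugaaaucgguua
miR-29b*: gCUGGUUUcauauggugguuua
The first 3 share the seed AGCACCA, which no other mature sequence in the RefSeq table of 1679 mature names held. Counting from 1 at the 5′ end without gaps, miR-29a differs from miR-29c by U10C alone, with miR-29c's base first. In the same way miR-29b differs from miR-29c by G18A, U21G and A22U over the 22 bases compared, and is 1 base longer. The sequence of miR-29b*, the partner strand cut from the other side of a miR-29b hairpin, carries a different seed. How far each probe binds the other members was not tested.

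The family comes from a pair of gene clusters. Mir29a and Mir29b-1 lie on the minus strand at chr6:31062660-31063093 (GRCm38.p6), with 275 bases between their hairpins. Mir29b-2 and Mir29c lie on the plus strand at chr1:195037040-195037634 (GRCm38.p6), with 426 bases between them. Both Mir29b genes give the same mature miR-29b, so its level sums over the chromosomes. The array's design places the brightest probe of each member, in the older build mm9, at chr6:31012673-31012692 for miR-29a, chr1:196863287-196863307 for miR-29b, chr6:31013067-31013088 for miR-29b* and chr1:196863794-196863815 for miR-29c. The target of miR-29b* was matched to the partner strand of Mir29b-1 because it lies on the same chromosome and as far from miR-29a, 394 bases, as in RefSeq.

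Levels are log2 of the signal after scaling each array by the 75th percentile of 170 probes that every array read well above background. Of the 577 miRNAs, 225 could be tested because some line read them well above background on each of its 3 arrays, and all 4 members were among them. miR-29a, miR-29b and miR-29c were well above background on all 12 arrays, and miR-29b* on 9, none of them from 67NR. The 67NR arrays stood apart from the rest. Across tested miRNAs, arrays of different lines among 4T1, 4TO7 and 168FARN correlated at r of 0.837 to 0.965, against 0.54 to 0.637 with the 67NR arrays. Scaling values were 600 to 1213 signal units in the 3 lines and 358 to 460 in 67NR. The 67NR arrays shared a slide with the first 168FARN array, and the remaining 8 sat together on a second slide. Epithelial miRNAs, the markers of the labelled breast cancer origin, were near background. None of the 6 (miR-200a, miR-200b, miR-200c, miR-141, miR-429 and miR-205) rose well above background throughout the 3 arrays of any line, and their summed signals were 0 to 1.18 units in 4T1, 3.84 to 5.71 in 4TO7, 0.269 to 2.91 in 168FARN and 24 to 38.1 in 67NR. In bulk RNA from a line, fewer cells with a miRNA and less of it per cell cannot be told apart.

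miR-29a, the guide strand encoded on chromosome 6, was low in 67NR and high in the other lines. Its log2 levels were 2.19, 2.14 and 2.28 in 4T1, 2.65, 2.54 and 2.68 in 4TO7, 3.41, 3.51 and 3.36 in 168FARN, and -0.83, -0.72 and -0.78 in 67NR. The order was 168FARN, 4TO7, 4T1 and then 67NR, and no line's arrays overlapped those of another. In deposited signal units, before scaling, miR-29a averaged 4780 ± 404 in 4T1, 3870 ± 375 in 4TO7, 10500 ± 2400 in 168FARN and 246 ± 32.7 in 67NR (SD, n = 3 each). The order of 4T1 and 4TO7 thus differs before and after scaling, while 168FARN stays at the top and 67NR at the bottom. Among the 225 tested miRNAs, 89.8% had a smaller range between line means than the 4.21 (log2) of miR-29a, and the median range was 2.00.

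miR-29b, the guide strand that both clusters encode, followed the same order. Its log2 levels were 2.09, 2.20 and 2.18 in 4T1, 2.54, 2.51 and 2.60 in 4TO7, 3.20, 3.37 and 3.18 in 168FARN, and -0.23, -0.11 and -0.12 in 67NR. Again the arrays of the 4 lines did not overlap, with 67NR far below the rest. The range of its line means was 3.4 (log2), above that of 76.9% of the tested miRNAs.

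miR-29b*, the partner strand, gave dim signals. Its log2 levels were -3.77, -3.91 and -3.82 in 4T1, -3.51, -3.60 and -3.51 in 4TO7, and -2.38, -2.34 and -2.57 in 168FARN, while the 3 67NR arrays were at the floor of -5.58 and not well above background. In deposited units these are 72.8 ± 8.95 in 4T1, 54.1 ± 4.37 in 4TO7 and 183 ± 50 in 168FARN, against 2.94 ± 0.596 in 67NR (SD, n = 3 each). On the scaled levels the 3 lines in which it was measured kept the order seen for miR-29a and miR-29b. Before scaling, 4T1 lay above 4TO7.

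miR-29c, the guide strand encoded beside Mir29b-2 on chromosome 1, differed less between 67NR and the other lines. Its log2 levels were -0.99, -0.96 and -0.97 in 4T1, -0.75, -0.78 and -0.66 in 4TO7, 0.03, 0.22 and 0.12 in 168FARN, and -0.61, -0.51 and -0.53 in 67NR. On this scale 67NR lay second, below 168FARN and above 4TO7 and 4T1, and the arrays of neighbouring lines came close without overlapping. In deposited units, before scaling, miR-29c averaged 530 ± 67.9 in 4T1, 380 ± 39 in 4TO7, 1060 ± 192 in 168FARN and 288 ± 35.2 in 67NR (SD, n = 3 each). There 67NR was lowest. Scaled to the 75th percentile of all probes it also lay below 4T1 and 4TO7, by 0.29 and 0.25 (log2), so its place among these 3 lines rests on the scaling. Its line means spanned 1.09 (log2), and 19.1% of the tested miRNAs had a smaller range.

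**Figure D1:**
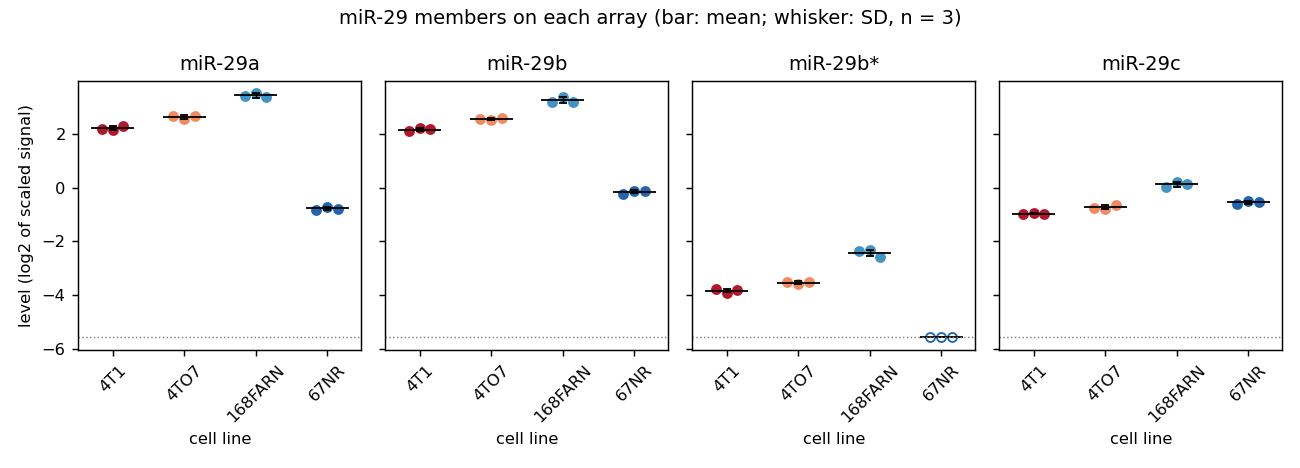
Level of each miR-29 member on each of the 12 arrays, as log2 of the scaled signal (y axis), by cell line (x axis). Points are arrays, bars are means and whiskers SD (n = 3), and open points at the dotted floor of -5.58 were not well above background. Levels of different panels come from different probes and are not to be ranked against each other. The 67NR arrays lie below all others for miR-29a, miR-29b and miR-29b*. For miR-29c they lie second highest under this scaling, but lowest before scaling or when scaled to the 75th percentile of all probes.

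Set against 67NR, the metastatic line 4T1 had more miR-29a and miR-29b and slightly less miR-29c, the last under the scaling used here. miR-29a averaged 2.20 ± 0.07 in 4T1 and -0.78 ± 0.06 in 67NR (SD, n = 3 each), a difference of 2.98 ± 0.05 (log2, SE) or 7.90-fold (limma, adjusted p = 3.68e-13). miR-29b was higher in 4T1 by 2.31 ± 0.06 or 4.95-fold (adjusted p = 4.48e-12). miR-29c averaged -0.97 ± 0.01 in 4T1 and -0.55 ± 0.05 in 67NR, a difference of -0.42 ± 0.05, or 1.34-fold lower in 4T1 (adjusted p = 1.03e-05). For miR-29b* the background of the 67NR arrays gives only a bound, and by its brightest probe it was at least 1.99-fold higher in 4T1. The fitted difference, with 67NR at the floor, was 1.74 (limma, adjusted p = 8.84e-11), and the bound itself was not tested. The bound takes, on each 67NR array, the lowest signal well above background in place of the unread probe. So 3 members were higher and 1 lower, where 79.6% of tested miRNAs were called in this comparison, 32.0% higher and 47.6% lower. The median difference of the members was 2.02, against -0.05 for all tested miRNAs.

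The sizes depended on the scaling. With the 75th percentile of all probes 4T1 was above 67NR by 3.69 for miR-29a and 3.02 for miR-29b, and with quantile normalization by 3.67 and 2.83, while the gene-level total signal gave 2.59 and 1.90. All of these passed. The small fall of miR-29c depended on the scaling for its direction. With the 75th percentile of all probes it became a difference of 0.29 in 4T1 over 67NR (adjusted p = 0.000827), with the median of all tested miRNAs itself moved by 0.71, and the calls were 90 higher and 87 lower against 72 higher and 107 lower. With quantile normalization the calls were 95 higher and 90 lower, and miR-29c stood at -0.29. The call of miR-29b* also depended on the processing. Normexp background correction, which here added an offset of 50 units to every signal, gave -0.17. That was called in the opposite direction (limma, adjusted p = 0.0363). Its second probe gave 0.14, which did not pass. For that probe the scaled 4T1 mean, -5.44, lay close to the floor of -5.58 at which 67NR stood. Before scaling it averaged 24.1 units in 4T1 and 2.4 in 67NR, so the floor limits the 0.14. The mean of all probes (0.47) and a doubled floor (0.74) gave differences that passed but lay under the bound. Both are smaller by construction. With 67NR at the floor, raising the floor from -5.58 to -4.58 shrinks the difference, and the mean takes in probes at the floor in every line. No 4T1 array shared a slide with 67NR. With slide as a term the differences were 2.96, 2.24, 1.81 and -0.56 for miR-29a, miR-29b, miR-29b* and miR-29c, and all 4 passed. Only 168FARN had arrays on both slides, with 1 on the slide of 67NR, so the slide term rests on that line's arrays. It cannot by itself separate slide from line for 4T1 against 67NR.

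4TO7 differed from 67NR in the same directions as 4T1 did. In 4TO7 miR-29a was 3.4 (log2) higher than in 67NR, or 10.5-fold (limma, adjusted p = 1.18e-13), miR-29b was 2.70 higher, or 6.51-fold (adjusted p = 1e-12), and miR-29b* was at least 2.45-fold higher. That bound is for its brightest probe. The fitted difference of miR-29b* was 0.29 with normexp, 0.50 with the second probe, 0.63 with the mean of all probes and 1.04 with a doubled floor. All were called and all lay under the bound, and the floor and the normexp offset limit them as in 4T1 over 67NR. miR-29c averaged -0.73 ± 0.06 in 4TO7 and -0.55 ± 0.05 in 67NR, a difference of -0.18 (adjusted p = 0.00631). Again 3 members were higher and 1 lower, where 79.6% of tested miRNAs were called, 31.6% higher and 48.0% lower. The members' median difference was 2.37, against -0.15 for all tested miRNAs. The miR-29c call was lost with quantile normalization (-0.10) and turned with the 75th percentile of all probes (0.25). These lines shared no slide, and with slide as a term the differences were 3.38, 2.63, 2.11 and -0.32 for miR-29a, miR-29b, miR-29b* and miR-29c.

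In 168FARN all 4 members were higher than in 67NR, and for miR-29a and miR-29b this was the largest difference of the 6 pairs of lines. All 4 were called, where 88.0% of tested miRNAs were called, 40.0% higher and 48.0% lower, with a median of 3.28 for the members and -0.06 for all tested. miR-29a was higher by 4.21 or 18.4-fold (limma, adjusted p = 2.09e-14) and miR-29b by 3.4 or 10.6-fold (adjusted p = 1.27e-13). miR-29b* was at least 5.28-fold higher by its brightest probe. Its fitted difference was 0.78 with normexp, 1.17 with the mean of all probes, 1.53 with the second probe and 2.15 with a doubled floor. All were called and all lay under that bound, and the floor and the normexp offset limit them here too. miR-29c averaged 0.12 ± 0.10 in 168FARN and -0.55 ± 0.05 in 67NR, a difference of 0.67 ± 0.05 or 1.59-fold (adjusted p = 1.33e-07). On the slide that the 2 lines shared, with 1 168FARN array, the differences were 4.19 for miR-29a, 3.36 for miR-29b, 3.20 for miR-29b* and 0.58 for miR-29c. These comparisons share the 67NR arrays, so their likeness is no separate evidence.

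Among the 3 lines other than 67NR, all 4 members moved the same way. 4T1 lay below 168FARN for each. The difference, 4T1 minus 168FARN, was -1.22 ± 0.05 for miR-29a (2.33-fold lower, limma, adjusted p = 2.41e-09) and -1.09 ± 0.06 for miR-29b (2.14-fold lower, adjusted p = 8.42e-09). It was -1.41 ± 0.06 for miR-29b* (2.65-fold lower, adjusted p = 1.32e-09) and -1.09 ± 0.05 for miR-29c (2.14-fold lower, adjusted p = 3.05e-09). That is 4 of 4 lower, where 73.8% of tested miRNAs were called, 34.2% higher and 39.6% lower, with a member median of -1.16 against 0 for all tested. On the second slide alone the differences were -1.23, -1.12, -1.39 and -1.14 in the same order of members. For miR-29b* the mean of all probes gave -0.70, which also passed.

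4TO7 was also below 168FARN for 4 of 4 members, where 74.2% of tested miRNAs were called, 35.1% higher and 39.1% lower, with medians of -0.83 for the members and 0 for all tested. The differences were -0.81 for miR-29a, -0.70 for miR-29b, -1.11 for miR-29b* and -0.85 for miR-29c, with adjusted p between 1.1e-08 and 4.45e-07. Within the second slide they were -0.81, -0.72, -1.09 and -0.90. For miR-29b* normexp gave -0.48 and the mean of all probes -0.53, and both passed.

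4T1 and 4TO7 lay closest. 4T1 was lower for 4 of 4 members. The difference, 4T1 minus 4TO7, was -0.42 for miR-29a (1.33-fold lower, limma, adjusted p = 5.18e-05) and -0.39 for miR-29b (1.31-fold lower, adjusted p = 0.000102). It was -0.30 for miR-29b* (1.23-fold lower, adjusted p = 0.00106) and -0.24 for miR-29c (1.18-fold lower, adjusted p = 0.00145). Of all tested miRNAs 60.4% were called here, 24.9% higher and 35.6% lower, and the median was -0.34 for the members and 0 for all tested. All arrays of both lines were on the second slide. Before scaling, the signals of all 4 members were higher in 4T1 than in 4TO7. With the 75th percentile of all probes none of the 4 passed (-0.13, -0.11, -0.02 and 0.04), the median of all tested miRNAs moved by 0.28, and the calls were 79 higher and 40 lower against 56 higher and 80 lower. With quantile normalization miR-29b did not pass (-0.07).

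**Figure D2:**
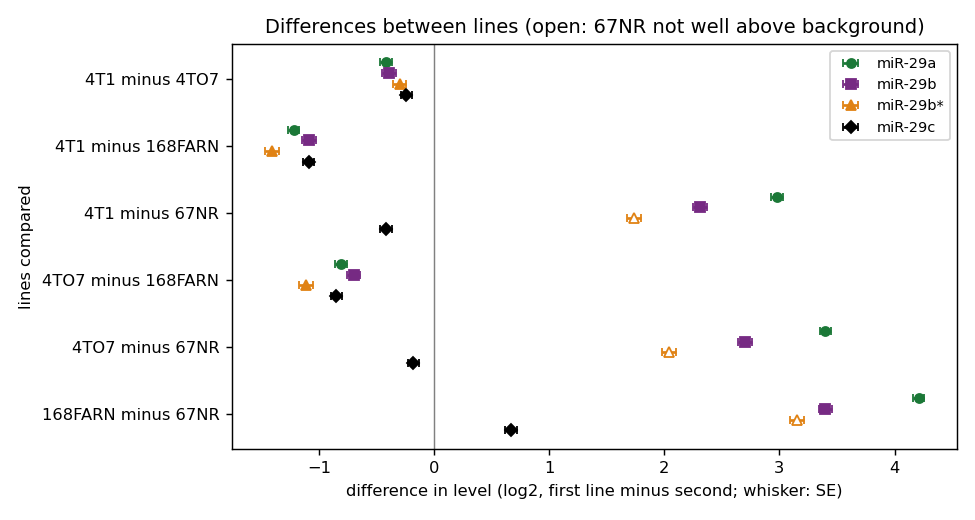
Difference in level (x axis, log2, first line minus second) of the 4 miR-29 members in the 6 pairs of lines (y axis), with SE as whiskers. Open triangles mark miR-29b* where 67NR was not well above background and the plotted value rests on the floor. In the 3 pairs without 67NR the members lie together on the lower side, between -1.41 and -0.24, while in the pairs with 67NR miR-29c lies apart from the others, with a sign in 4T1 and 4TO7 that depends on the scaling.

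Against the average of the 3 non-metastatic lines, 4T1 had more miR-29a, by 0.45 ± 0.04 (limma, adjusted p = 2.46e-06), more miR-29b, by 0.27 ± 0.05 (adjusted p = 0.00018), and less miR-29c, with a difference of -0.59 ± 0.04, or 1.5-fold lower (adjusted p = 1e-07). miR-29b* did not pass (0.01, 95% interval -0.09 to 0.12, adjusted p = 0.815). So 2 members were higher and 1 lower, where 87.6% of tested miRNAs were called, 28.0% higher and 59.6% lower, with medians of 0.14 for the members and -0.34 for all tested. With slide as a term the differences were 0.44, 0.24, 0.04 and -0.65 for miR-29a, miR-29b, miR-29b* and miR-29c. With the 75th percentile of all probes those calls were 93 higher and 98 lower, and with quantile normalization 89 higher and 106 lower, against 63 higher and 134 lower. Under these scalings the difference was 0.86 and 0.84 for miR-29a and 0.68 under both for miR-29b. For miR-29b* it was 0.26 and 0.20, and for miR-29c -0.18 and -0.53, and all of these passed. The median of all tested miRNAs moved by 0.39 and 0.23, so the size of the miR-29c difference depended on the scaling. The average hides opposite differences, since 4T1 lay above 67NR but below 4TO7 and 168FARN for miR-29a and miR-29b. Without the 67NR arrays, a comparison added after the values were seen, 4T1 was lower than the mean of 4TO7 and 168FARN, with differences of -0.82 for miR-29a, -0.74 for miR-29b, -0.85 for miR-29b* and -0.67 for miR-29c, with adjusted p between 5.43e-06 and 9.49e-06.

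Ratios of members within an array do not depend on a scaling that divides the whole array by a single value. Quantile normalization is not of that kind, and the ratios were not recomputed under it. Between probes only the change of a ratio from line to line can be read, not the ratio itself. The log2 ratio of miR-29c over miR-29a was -3.18, -3.10 and -3.25 in 4T1, -3.39, -3.32 and -3.34 in 4TO7, -3.38, -3.29 and -3.24 in 168FARN, and 0.23, 0.21 and 0.25 in 67NR. The 67NR arrays lay far above the other 9, which were close together. The 168FARN array that shared the 67NR slide was the one at -3.38. Compared with 67NR the ratio was 10.6-fold lower in 4T1, 11.9-fold lower in 4TO7 and 11.6-fold lower in 168FARN. An exact permutation test of the 4 lines, over 369600 assignments of the arrays, gave p = 0.000584 (adjusted over 3 pairs of members, 0.000974), where the smallest possible was 6.49e-05.

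The ratio of miR-29c over miR-29b, which are encoded side by side on chromosome 1, showed the same split. It averaged -3.13 ± 0.05 in 4T1, -3.28 ± 0.02 in 4TO7, -3.13 ± 0.06 in 168FARN and -0.40 ± 0.02 in 67NR (SD, n = 3 each, exact permutation p = 0.000649, adjusted 0.000974). Relative to 67NR it was 6.64-fold lower in 4T1, 7.37-fold lower in 4TO7 and 6.63-fold lower in 168FARN. The ratio of miR-29a over miR-29b moved least, at 0.05 ± 0.09 in 4T1, 0.07 ± 0.04 in 4TO7, 0.18 ± 0.03 in 168FARN and -0.62 ± 0.03 in 67NR (exact permutation p = 0.00149, adjusted 0.00149). Here the 67NR arrays were the low ones, by 0.67, 0.70 and 0.80 (log2) below 4T1, 4TO7 and 168FARN. Without 67NR the largest differences between line means were 0.17, 0.15 and 0.13 for the 3 ratios, and none passed (exact permutation, adjusted p = 0.0536, 0.0536 and 0.0821, with 0.00357 the smallest unadjusted p possible).

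**Figure D3:**
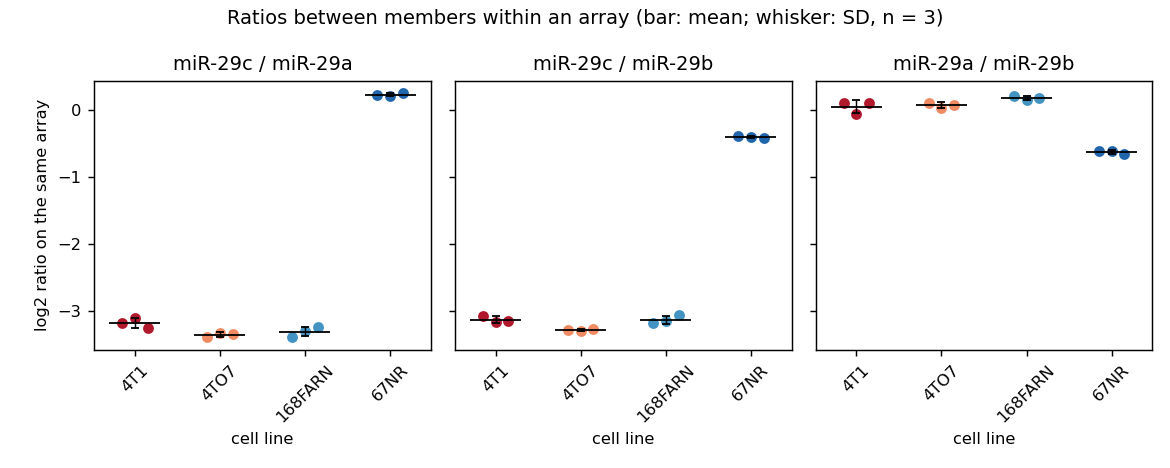
Log2 ratio of 2 members on the same array (y axis) by cell line (x axis), with each array as a point, the mean as a bar and SD as whiskers (n = 3). For miR-29c over miR-29a and over miR-29b the 67NR arrays lie above the other 9, and for miR-29a over miR-29b they lie below. Only the change between lines can be read, since the members have different probes.

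Across arrays the members' levels ran together to the extent that these line differences allow. Over the 12 arrays Pearson's r was 0.999 between miR-29a and miR-29b and 0.299 between miR-29a and miR-29c. Over the 9 arrays without 67NR it was 0.994 and 0.986 for the same pairs. These values describe 4 line means and 3 line means, and the arrays of a line are not separate points.

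The miRNAs most like each member were picked by r among 94 others well above background on all 12 arrays. For both miR-29a and miR-29b they were miR-709, miR-27a and let-7i, with r of 0.986, 0.982 and 0.981 to miR-29a. let-7i is a member of the let-7 family of differentiation-linked miRNAs. All 3 were lowest in 67NR, and without 67NR their r to miR-29a was 0.829, 0.738 and 0.715. For miR-29c they were miR-140, a miRNA of cartilage and mesenchyme, its partner strand miR-140*, and miR-26b, with r of 0.932, 0.904 and 0.754. These were highest in 168FARN, and their r without 67NR was 0.985, 0.931 and 0.813.

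**Figure D4:**
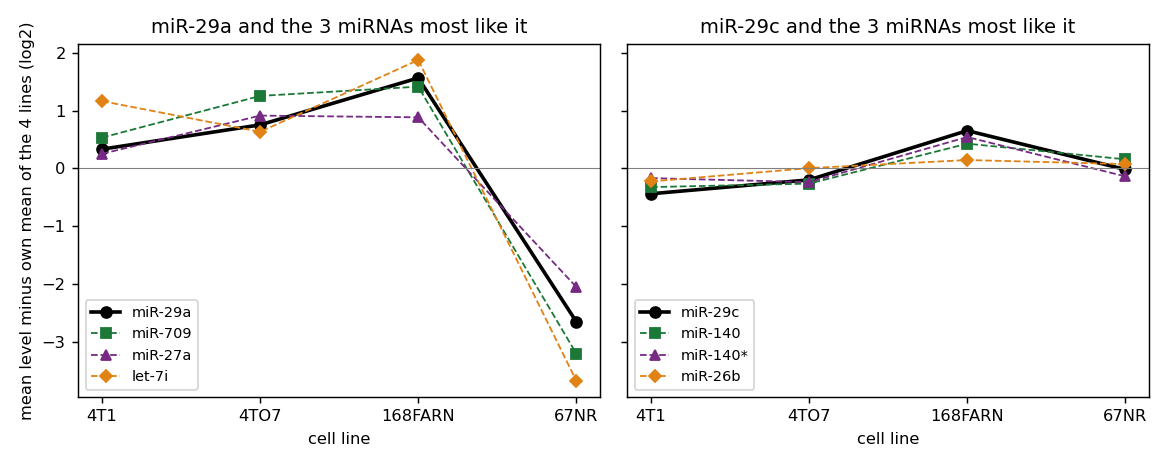
Mean level of miR-29a (left) and miR-29c (right) and of the 3 miRNAs most like each, as the difference from a miRNA's own mean over the 4 lines (y axis, log2), by cell line (x axis). The lines between points join the same miRNA. On the left all 4 miRNAs are lowest in 67NR, and on the right all 4 are highest in 168FARN.

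miR-29 was highest in 168FARN, and so were miRNAs of mesenchymal cells. Of 6 mesenchymal markers on the array, 4 were well above background on all arrays of 168FARN and 1, miR-140, in each of 4T1, 4TO7 and 67NR. Their summed signals were 105 to 131 units in 4T1, 61.1 to 72 in 4TO7, 466 to 748 in 168FARN and 50.6 to 66.6 in 67NR. Marker sums are in deposited units before scaling, so no order among 4T1, 4TO7 and 67NR is read from them. On scaled levels miR-140 stood at -3.36 in 4T1, -3.30 in 4TO7, -2.61 in 168FARN and -2.88 in 67NR. miR-145 and miR-214 were at the floor in all 4 lines. Blood and muscle markers were also somewhat higher there: the 4 blood markers summed to 39.3 to 58.5 units in 168FARN and to at most 15 in the other lines, and the 3 muscle markers to 25.3 to 43.8 in 168FARN and at most 6.99 elsewhere, each through 1 marker well above background (miR-142-3p and miR-206). Of the other markers on these lists, miR-150, miR-142-5p, miR-1 and miR-133a were at the floor in all 4 lines, and miR-223 was well above background on none of the 12 arrays. The endothelial miR-126-3p ran the other way, with 37.1 to 45.2 units in 4T1, 20.7 to 26.4 in 4TO7, 1.41 to 3.11 in 168FARN and 92 to 119 in 67NR, and the neural miR-124 was at the floor throughout. The part of these markers in the miR-29 differences was not tested.

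Other miRNAs that act on matrix production or on the same enzymes were counted for comparison. Of 16 listed miRNAs known to act on collagen or fibrotic signalling, 9 were tested. Against the average of the 3 non-metastatic lines, 2 were higher in 4T1 and 7 lower, with a median difference of -0.43. Over all tested miRNAs 28.0% were higher and 59.6% lower, with a median of -0.34, so these counts lie near the background. Of the same 9, 2 were higher and 5 lower in 4T1 than in 67NR, where 32.0% of all tested were higher and 47.6% lower (medians -0.92 and -0.05). In 4T1 over 168FARN 4 were higher and 3 lower, against 34.2% and 39.6% of all tested (medians 0.03 and 0). In 4T1 over 4TO7 4 were higher and 2 lower, against 24.9% and 35.6% of all tested, and both medians were 0. miR-21, a promoter of fibroblast activation, was higher in 4T1 by 1.52 ± 0.05 (limma, adjusted p = 1.42e-10), with levels of 4.27 in 4T1, 3.84 in 4TO7, 4.24 in 168FARN and 0.16 in 67NR. Like miR-29a it was low in 67NR alone. miR-155, an inflammation-linked miRNA, was higher in 4T1 and not read in 67NR. The matrix-regulating miR-18a, miR-19a and miR-19b of the miR-17-92 cluster were lower in 4T1, with differences of -0.39, -0.83 and -0.59, and were highest in 67NR, where miR-29a was lowest. The lower value was not against every line, since their levels were 0.29, 0.60 and 2.30 in 4T1 and -1.13, -0.45 and 1.24 in 168FARN. miR-30c, a repressor of connective tissue growth factor, was also lower (-0.34). For miR-192, well above background only in 67NR, and for miR-143 and miR-199a-5p, well above background only in 168FARN, the lower value in 4T1 is against a single line.

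The list of miRNAs that share DNA methyltransferase messages as targets with miR-29 held 3, and all were lower in 4T1 than the average of the other lines. Of all tested miRNAs 59.6% were lower in that comparison, and the median was -1.35 for the 3 and -0.34 for all. In single pairs 2 of 3 were lower in 4T1 than in 67NR, where 47.6% of all tested were, 2 of 3 lower than in 168FARN, where 39.6% were, and 3 of 3 lower than in 4TO7, where 35.6% were. With 3 miRNAs these counts are a description only. miR-148b was lower, with a difference of -1.35 ± 0.04 (limma, adjusted p = 2.29e-11), with levels of -4.0 in 4T1, -3.71 in 4TO7, -3.43 in 168FARN and -0.80 in 67NR. It was highest in 67NR, the line in which miR-29a and miR-29b were lowest. miR-148a was at the floor in 4T1 and in 168FARN and stood at -2.65 in 4TO7 and 0.51 in 67NR. It was still well above background on 2 of the 3 4T1 arrays, and on none of 168FARN. miR-152 was well above background only in 4TO7 and 168FARN.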

How the data were processed

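Feature Extraction 10.2.1.3 made the deposited intensity of each spot, a background-subtracted processed signal with no scaling between arrays, per the file headers (probe positions in mm9). The series' deposited intensity values equal these signals spot by spot (largest difference 0, medians 1.20 to 1.97 units). After removal of control spots and of 284 to 508 outlier spots per array, probe means were scaled to the 75th percentile of the 170 probes that all 12 arrays read well above background. A floor (log2 -5.58) was set, log2 was taken and the brightest probe stood for each miRNA. No spot was saturated. A probe was read as well above background when more than 50% of its spots were. Files were read with data.table, version 1.17.8, and limma 3.58.1 (R 4.3.3) fitted the 4 lines to all 12 arrays (8 residual degrees of freedom), and calls needed an adjusted p (Benjamini-Hochberg, two-sided, over 225 miRNAs in each comparison) below 0.05. The script was tested on simulated data. Ratios of members were tested by exact permutation of an F statistic. The text names all members, the 3 miRNAs most like each fully read member, and list members called in 4T1 against the average. Members, lists and markers were chosen with earlier results of these data known. Other scalings, background corrections, floors, filters, probe summaries, slide and replicate terms and left-out arrays were tried.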

Additional observations from a re-analysis of the deposited data

How the results depend on the processing

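Of 385 values recomputed under other settings, 365 kept direction and side of the threshold, and of 336 with 1 array left out 334 did. Many of these could not change direction. Other filters, the replicate block, other variance settings and fits of only the lines compared leave the differences themselves unchanged. Leaving out an array leaves pairs without its line unchanged. In those cases only the adjusted p could move, so the totals overstate how stable the values are. The smaller differences of miR-29b* from 67NR under a doubled floor follow from the floor itself. Other causes of the changes were not tested. With the 75th percentile of all probes, miR-29c reversed in 4T1 over 67NR (0.29), 4T1 over 4TO7 (0.04) and 4TO7 over 67NR (0.25), miR-29a, miR-29b and miR-29b* no longer passed in 4T1 over 4TO7 (-0.13, -0.11 and -0.02), and miR-29b* passed in 4T1 over the average (0.26). Quantile normalization lost miR-29b in 4T1 over 4TO7 (-0.07) and miR-29c in 4TO7 over 67NR (-0.10), and miR-29b* passed against the average (0.20). The dim miR-29b* depended most on processing. In 4T1 over 67NR it gave -0.17 with normexp, called lower. With its second probe, which lay near the floor in 4T1, it gave 0.14 and did not pass. Against the average it gave -0.53 with normexp, -0.13 with the mean of all probes, -0.32 with a doubled floor and -0.54 with the second probe. All of these were called lower. With 1 array left out it was -0.02 to 0.05 against the average, below 0 without 4T1 replicate 1 or without 168FARN replicate 3. Against the average, miR-29b did not pass with the gene-level total signal (0.05). Without the 67NR arrays, miR-29a (-0.82), miR-29b (-0.74) and miR-29b* (-0.85) reversed against the average, and the 3 ratios no longer differed between lines past the threshold (0.17, 0.15 and 0.13).

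Restricting the test to the 97 miRNAs read on all 12 arrays lowered the number called to 88 in 4T1 over 67NR, 78 in 4T1 over 168FARN, 71 in 4T1 over 4TO7, 87 in 4TO7 over 67NR, 75 in 4TO7 over 168FARN, 92 in 168FARN over 67NR and 83 in 4T1 over the average, since fewer were tested. With all arrays and miRNAs these were 179, 166, 136, 179, 167, 198 and 197. Same-numbered repeats did not pair (r of their deviations -0.78 to 0.51, above 0.1 in 6 of 18 pairs), and the replicate block changed none of the 28 member calls, with miR-29a at 2.98 in 4T1 over 67NR. A slide term changed none either, but it rests on 168FARN replicate 1 against that line's other arrays. 4T1 and 4TO7 never shared a slide with 67NR, so those differences have no value within a slide. Signal over background limits miR-29b*, read on 9 of 12 arrays.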

Other observations

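The partner strands of the other family members were on the array but too dim to test. miR-29a*, the partner strand of miR-29a, was well above background on 4 of 12 arrays, 2 of 4T1 and 2 of 168FARN. Its brightest probe gave 12 to 17.3 signal units in 4T1, 7.15 to 9.84 in 4TO7, 13.6 to 22.3 in 168FARN and 0.173 to 1.51 in 67NR. miR-29c*, the partner strand of miR-29c, was well above background on 0 of 12 arrays. It gave 5.96 to 7.25 units in 4T1, 3.29 to 4.58 in 4TO7, 6.62 to 12.5 in 168FARN and 10.5 to 13.9 in 67NR. These signals lie at or near background and were not scaled, so no order of lines is read from them.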
